A study of Homo sapiens with 6 samples.

Results

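Replication-dependent histone genes were examined in Rh30 cells exposed to YK-4-279, and they were chosen by symbol alone, as every row named H1-1 to H1-6 or with the prefix H2AC, H2BC, H3C or H4C followed by a number. There were 64 such genes among 35268 named rows, with 6 of class H1, 14 of H2A, 17 of H2B, 13 of H3 and 14 of H4. Rh30 is an established cell line of fusion-positive rhabdomyosarcoma (FP-RMS), a muscle-like tumor driven by the PAX3-FOXO1 fusion, and all 6 libraries came from this line. YK-4-279 is a small molecule used to disrupt protein contacts of transcription factors of the ETS family. The drug group was 3 samples kept with 1 µM YK-4-279, dissolved in DMSO, over 24 hours, and the control group was 3 samples kept with DMSO alone over the same time. RNA was made into directional poly(A)-selected mRNA libraries, so transcripts without a poly(A) tail were seen only so far as they passed that selection. The libraries held 16724650 to 24677433 reads, of which 761 to 1124 per DMSO library and 1400 to 1722 per YK-4-279 library fell on the 64 histone genes.

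Replication-dependent histone genes supply the core histones H2A, H2B, H3 and H4 and the linker histone H1 that package newly made DNA, and most of their mRNA is made in S phase. These mRNAs normally end in a conserved stem-loop and not in a poly(A) tail, the end being cut with the help of U7 snRNP and held by the stem-loop binding protein SLBP. Many of the genes also carry polyadenylation signals past the stem-loop, and polyadenylated forms are known from cells that differentiate or leave the cell cycle. Because this contrast was already known when these genes were selected, their differences between treatments are given as a description, and where the number past a threshold in the fit across all genes is printed, nothing is read from it.

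The stem-loops are shown first because they mark the end of the form that poly(A) selection should miss. The 16-letter pattern GGNNCTNTTNAGNNCC was searched on the transcribed strand at the end of the short form of each gene (hg38, GENCODE release 44) and was found in 61 of 64, the exceptions being H2BC10, H3C6 and H4C13. Of its versions, 1 was shared by 36 genes of H1, H2A, H2B and H3 and another by 9 genes of these classes, 3 H2A genes each had a version of their own, and the H4 genes carried whole sequences found in no other class, in 9 and 4 genes. Each line gives the stem-loop in capitals with its neighbouring bases in lower case, 5′ to 3′ on the gene's own strand. H2BC5 and H2BC12 were the H2B genes with the most reads, H2AC6 and H2AC20 were H2A genes with opposite differences, and H4C9 led class H4.
H2BC5, chr6:26158582-26158607, plus strand: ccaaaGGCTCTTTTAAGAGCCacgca
H2BC12, chr6:27146361-27146386, minus strand: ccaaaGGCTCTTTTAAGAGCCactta
H2AC6, chr6:26124664-26124689, plus strand: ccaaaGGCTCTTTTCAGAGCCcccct
H2AC20, chr1:149887386-149887411, plus strand: ccaaaGGCTCTTTTTAGAGCCaccca
H4C9, chr6:27139649-27139674, plus strand: aaaaaGGCCCTTTTTAGGGCCcctaa

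Most histone genes were barely seen in these poly(A)-selected libraries, and those that were seen were mostly higher with YK-4-279. Of the 64 genes, 15 had no read in any library, 30 had reads but a mean below 10 normalized counts, and 19 had a mean of at least 10, the minimum for the fit across 13930 genes. These 19 held 87.0% to 93.1% of the histone reads of a library. Of the genes with no read, H3C15, H4C15, H3C14 and H2AC14 had exact copies elsewhere over 100%, 100%, 99.2% and 69.7% of the short form. Such copies (at least 100 bases) were also found for H4C14, H4C12, H4C11, H3C13 and H2AC13, which had few reads. Reads on them may have been dropped or split, so low counts there do not show absence of the mRNA. The other genes below the minimum had no such copy. A difference is given here as the log2 ratio, meaning the limma log2 fold change of normalized count + 1, YK-4-279 over DMSO, with its standard error (SE). The added count makes differences of genes with few reads smaller, and log2 ratios and ratios of means need not rank genes alike. On the log2 scale, 18 of the 19 genes were above 0 and 1 was below, from -0.42 (H2AC20) to 1.55 (H2BC6), with a median of 0.65, whereas the median of all 13930 genes was -0.007. With no minimum level, over the 49 histone genes with any read, the median was 0.253. The 3 values of each group did not overlap for 12 of the 19, with 11 higher and H2AC20 lower, beside backgrounds of 10.9% higher and 15.1% lower over all genes. A limma adjusted p under 0.05 was met by 4 of the 19, H2BC12, H2BC5, H2AC6 and H2BC21, all higher, beside 1.26% of all genes called higher, 2.15% called lower and 3.41% in either direction. The number called moved with single libraries, being 8 without DMSO replicate 1, 1 (H2BC5) without YK-4-279 replicate 1, and 2 (H2BC12 and H2BC5) without YK-4-279 replicate 2 or 3. DMSO replicate 1 stood apart from the rest, with a mean correlation of 0.9888 with the other libraries against 0.9923 to 0.9929, and with 6.05% of its reads on mitochondrial genes against 4.74% to 5.03%.

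**Figure D1:**
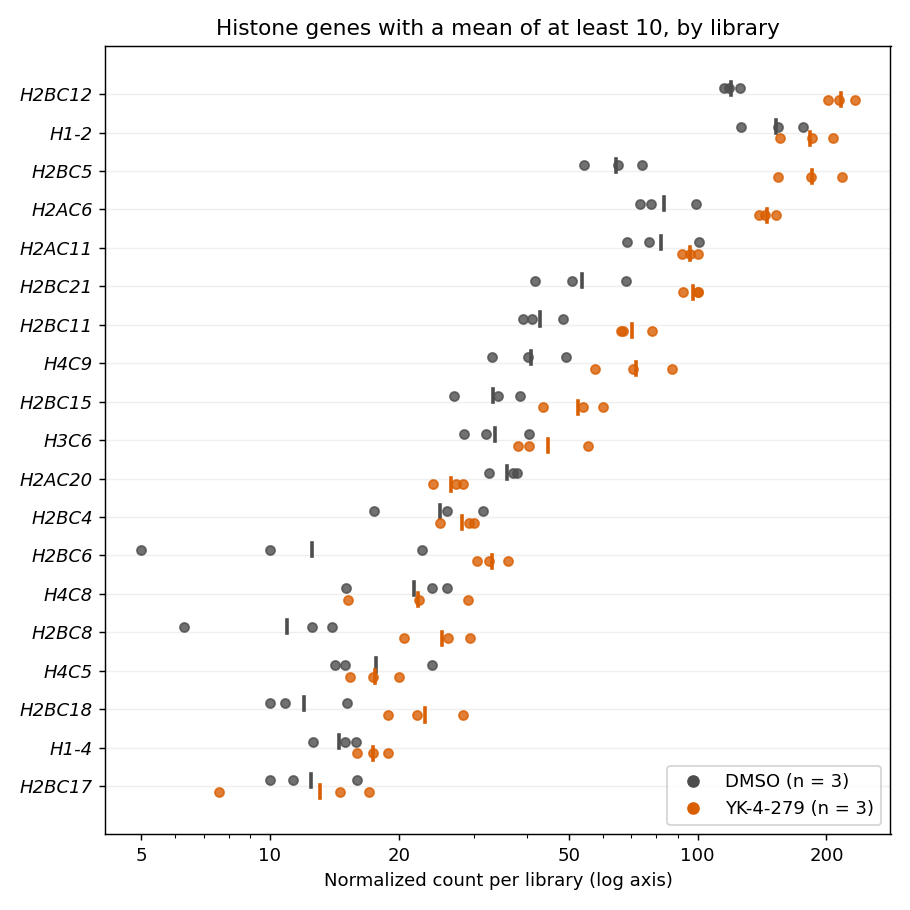
Normalized count (log axis) of the 19 histone genes with a mean of at least 10, ordered by mean, with 3 DMSO points in grey and 3 YK-4-279 points in orange per gene and a tick at each group mean. The orange points lie clear to the right for H2BC12, H2BC5, H2AC6 and H2BC21, and clear to the left for H2AC20 alone.

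H2BC5 encodes an H2B protein of the core nucleosome and lies at chr6:26158122-26158607 in its short form. It had 54.2, 73.9 and 65.1 normalized counts in DMSO replicates 1, 2 and 3, and 184, 217 and 154 in YK-4-279 replicates 1, 2 and 3. The lowest treated library held more than the highest control library by a wide margin. The means were 64.4 ± 9.88 and 185 ± 31.6 (SD, n = 3 each), a 2.88-fold ratio and a log2 ratio of 1.51 (SE 0.17), resting on 43 to 78 reads per DMSO library and 154 to 215 per YK-4-279 library. Counting error alone gave H2BC5 an SD of 6.82% to 15.2% of its value in a library. Over 17 alternative fits its log2 ratio stayed between 1.38 and 1.63.

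H2BC12 was the H2B gene with the most normalized counts in DMSO. It had 119, 126 and 115 normalized counts in the DMSO libraries and 233, 214 and 202 in the YK-4-279 libraries. The replicates of each group were tight and the groups lay far apart, with means of 120 ± 5.47 and 216 ± 15.6 (SD, n = 3 each) and a log2 ratio of 0.85 (SE 0.12). An exact copy of at least 100 bases elsewhere covered 58% of the H2BC12 transcript, in H2BC12L and ENSG00000274559, so its count is uncertain where such reads were dropped or split.

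H2BC21, on chromosome 1, had 68.1, 51.0 and 41.7 normalized counts with DMSO and 92.5, 99.97 and 100.05 with YK-4-279. The treated libraries were nearly level and all above the control libraries, which spread more widely. The means were 53.6 ± 13.4 and 97.5 ± 4.31 (SD, n = 3 each), with a log2 ratio of 0.88 (SE 0.19) and an exact copy elsewhere for 11.4% of the transcript. H2BC11 had 39.1, 41.0 and 48.4 with DMSO and 66.8, 66.3 and 78.0 with YK-4-279. Here too the groups were apart, with a log2 ratio of 0.71 (SE 0.18) and no exact copy of that length elsewhere.

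H2B genes with few reads showed both large and small differences. H2BC6 had 22.7, 4.996 and 10.0 normalized counts with DMSO and 32.6, 30.4 and 36.0 with YK-4-279, a log2 ratio of 1.55 (SE 0.42). By the ratio of means H2BC6 was below H2BC5, at 2.625-fold against 2.875-fold, and their order also changed between alternative fits. The DMSO libraries of H2BC6 spread over more than a 4-fold range, and leaving out single libraries moved its log2 ratio between 1.07 and 2.06. H2BC8 had 6.30, 14.0 and 12.5 with DMSO and 20.6, 29.3 and 26.0 with YK-4-279, a log2 ratio of 1.19 (SE 0.35). These groups also did not overlap, and 22.1% of the H2BC6 transcript had an exact copy elsewhere while H2BC8 had none.

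H2BC15 had 34.0, 27.0 and 38.4 normalized counts with DMSO and 59.98, 43.5 and 54.0 with YK-4-279, a log2 ratio of 0.65 (SE 0.22). H2BC18 had 15.1, 9.99 and 10.9 with DMSO and 18.9, 28.3 and 22.0 with YK-4-279, a log2 ratio of 0.89 (SE 0.32). In both genes every treated library was above every control library, but exact copies elsewhere covered 19.2% of H2BC15 and 86.6% of H2BC18. H2BC4 and H2BC17 had overlapping groups, with means of 25.0 ± 7.04 and 28.1 ± 2.68 for H2BC4 and of 12.5 ± 3.13 and 13.1 ± 4.88 for H2BC17 (SD, n = 3 each). Their log2 ratios of 0.19 (SE 0.27) and 0.02 (SE 0.39) turned negative in 1 and 6 of 16 alternative fits. Of the 10 H2B genes with a mean of at least 10, 8 had non-overlapping groups, all higher, beside 10.9% of all genes, and the median log2 ratio of the class was 0.86.

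The H2A genes did not move together. H2AC6 had 73.1, 98.9 and 77.6 normalized counts with DMSO and 153, 143 and 139 with YK-4-279, with means of 83.2 ± 13.8 and 145 ± 6.86 (SD, n = 3 each) and a log2 ratio of 0.81 (SE 0.15). H2AC11 had 76.9, 101 and 68.5 with DMSO and 96.0, 99.97 and 92.0 with YK-4-279, so that its highest value was in a control library, and its log2 ratio was 0.24 (SE 0.17), from 0.12 without DMSO replicate 3 to 0.40 without DMSO replicate 2. H2AC6 was thus apart between the treatments and H2AC11 overlapped. H2AC20 had 37.8, 37.0 and 32.6 with DMSO and 28.3, 27.2 and 24.0 with YK-4-279, every treated library being below every control library. Its means were 35.8 ± 2.83 and 26.5 ± 2.21 (SD, n = 3 each), with a log2 ratio of -0.42 (SE 0.22), and an exact copy elsewhere, in H2AC18 and H2AC19, covered 30.2% of the transcript. H2AC20 was negative in all of 16 alternative fits, between -0.58 and -0.33.

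Linker histone H1-2 was among the highest of all the histone genes but differed little between treatments. It had 126, 176 and 154 normalized counts with DMSO and 185, 208 and 156 with YK-4-279, with overlapping groups and a log2 ratio of 0.27 (SE 0.15), from 0.14 without DMSO replicate 1 to 0.38 without DMSO replicate 2. H1-4, of the same class, had 12.6 to 15.9 with DMSO and 16.01 to 18.9 with YK-4-279, just short of touching, with a log2 ratio of 0.25 (SE 0.30), which was 0.16 without DMSO replicate 1 and 0.06 with quantile normalization. H3C6 was the only H3 gene with a mean of at least 10, with 40.3, 32.0 and 28.4 with DMSO and 40.3, 55.4 and 38.0 with YK-4-279. Its groups overlapped, and its log2 ratio was 0.39 (SE 0.23), from 0.23 without YK-4-279 replicate 2 to 0.53 without DMSO replicate 1.

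In class H4, H4C9 had 49.2, 33.0 and 40.1 normalized counts with DMSO and 57.4, 70.6 and 87.0 with YK-4-279, a log2 ratio of 0.80 (SE 0.21) with all treated libraries above all control libraries. H4C8 and H4C5 were level in their group means, at 21.7 ± 5.83 and 22.2 ± 6.90 for H4C8 and 17.7 ± 5.42 and 17.6 ± 2.30 for H4C5 (SD, n = 3 each). Their log2 ratios of 0.02 and 0.02 had SEs of 0.32 and 0.31, and both turned negative in 5 of 16 alternative fits.

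**Figure D2:**
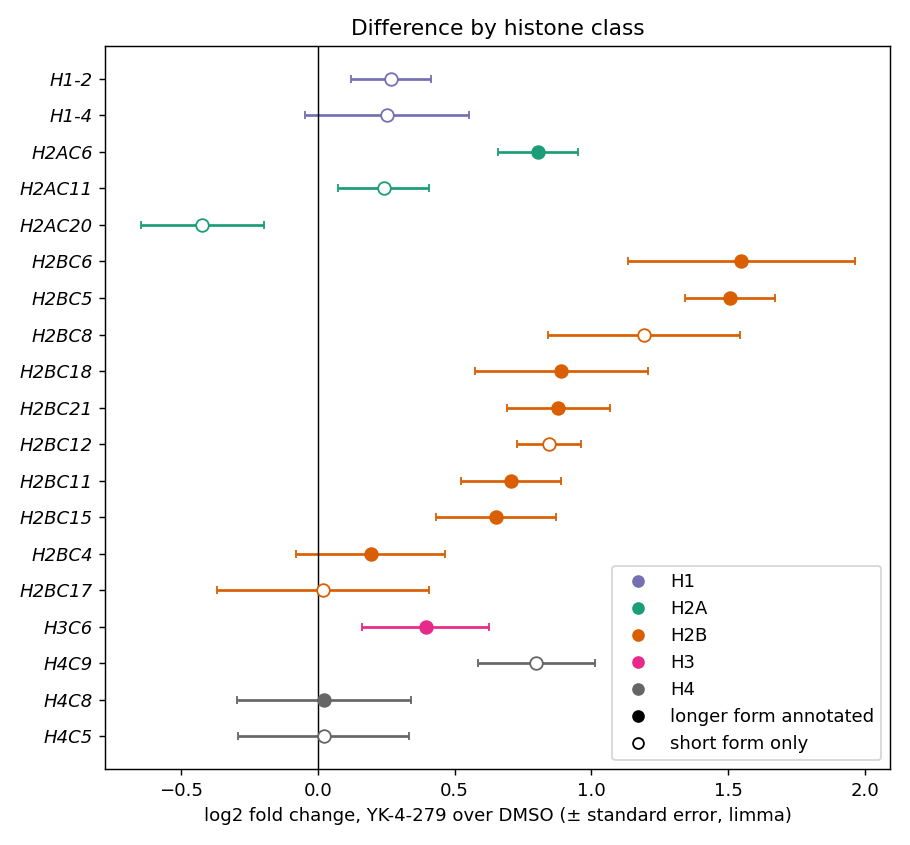
Log2 ratio (YK-4-279 over DMSO, limma, whiskers of 1 SE, n = 3 each) of the 19 histone genes, colored by class, with filled points for genes that have a longer annotated form. The H2B genes run from 0.02 to 1.55, and H2AC20 is the only gene below 0.

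Just under the minimum level lay H2AC8, H3C10 and H3C13, with means over all libraries of 9.05, 8.98 and 8.86 normalized counts. H2AC8 had 12.6, 10.99 and 15.03 with DMSO and 5.14, 6.52 and 4.002 with YK-4-279, from 10 to 18 and 4 to 6 reads per library. All treated libraries of H2AC8 were below all control libraries, although each value rests on few reads. H3C10 had means of 6.41 ± 2.40 and 11.5 ± 6.60 and H3C13 of 7.40 ± 4.61 and 10.3 ± 3.78 (SD, n = 3 each), with overlapping groups. Over all 64 genes, 13 were higher with no overlap, H3C2 and H4C14 joining at 3 to 9 and 0 to 3 reads per library, and 2 were lower, H2AC8 and H2AC20, beside 5.93% higher and 6.27% lower over all 35268 named genes with no minimum level. Exact copies elsewhere covered 83.8% of H3C13 and, in H4C15, 100% of the short form of H4C14, while H2AC8, H3C10 and H3C2 had none.

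Levels of different genes were compared per kb of annotated exon, on which H2BC12 and H1-2 led in the DMSO libraries with means of 242 and 208 normalized counts per kb, and their ranges of 233 to 254 and 172 to 241 overlapped. H2AC11 had 167 (139 to 205), overlapping H1-2, and below these came H4C9 at 103 (83.1 to 124) and H2BC5 at 74.8 (63.0 to 85.9), of which H4C9 and H2BC5 also touched. With YK-4-279, H2BC12 had 437 normalized counts per kb (408 to 471), H1-2 had 250 (214 to 284) and H2BC5 had 215 (179 to 252), so that H2BC5 reached the range of H1-2, which it had been far below in DMSO. Per-kb values depend on which form is present, since the annotated exons of H2BC5 span 861 bases against 486 for its short form.

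Sums over a class, which do not depend on the split of reads within it or on the minimum level, also put H2B first. The H2B sum was 414, 395 and 381 normalized counts with DMSO and 760.1, 776 and 726 with YK-4-279, a 1.90-fold ratio of the means of 396 ± 16.5 and 754 ± 25.3 (SD, n = 3 each). The H2A sum went from 225 ± 32.6 to 284 ± 15.2 and the H3 sum from 64.6 ± 4.42 to 89.3 ± 4.83 (SD, n = 3 each), ratios of 1.27 and 1.38 with no overlap. The H2B sum thus stood out in size. The H1 and H4 sums had ratios of 1.19 and 1.23 with overlapping groups. Without the gene of highest mean, the H2A ratio became 0.987 (without H2AC6) and the H4 ratio 0.943 (without H4C9), whereas the H1 ratio was 1.09 (without H1-2), the H3 ratio 1.44 (without H3C6) and the H2B ratio 1.95 (without H2BC12). All 64 genes together went from 971 ± 39.1 to 1472 ± 50.9 (SD, n = 3 each), or from 0.00455% to 0.00489% of the reads to 0.00714% to 0.00747%, and the sum of the genes with a mean under 10 had a ratio of 1.01. In bulk libraries, more cells expressing a gene and more RNA of it per cell cannot be told apart.

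**Figure D3:**
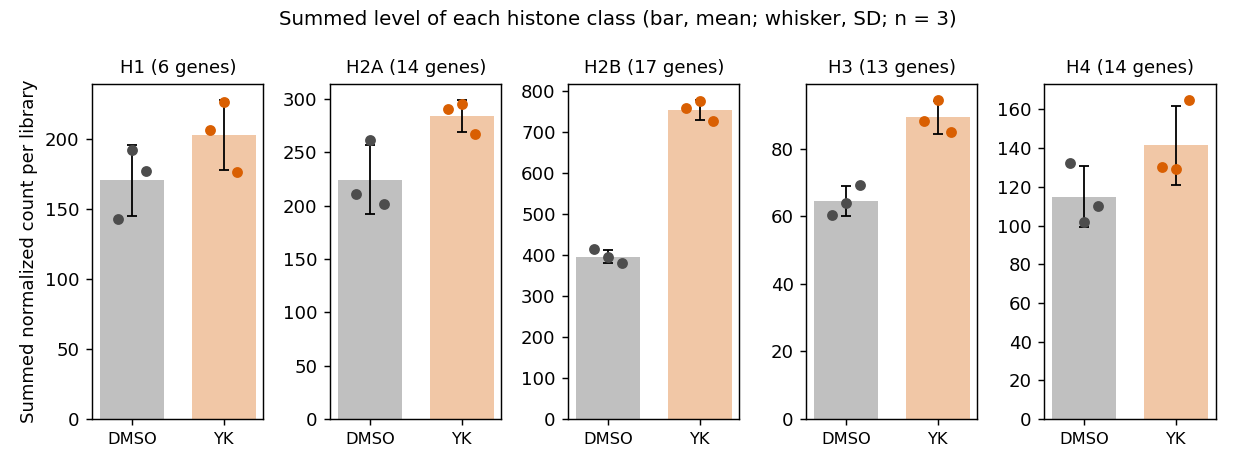
Summed normalized counts of each histone class in each library, with bars at the mean, whiskers of 1 SD and 3 points per group. The H2B sum is 381 to 414 in the DMSO libraries and 726 to 776 in the YK-4-279 libraries, and the H1 and H4 points overlap.

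The annotation of the 3′ ends was then set beside these values, since poly(A) selection favors forms that run past the stem-loop. A form ending at least 100 bases past the stem-loop or the short form's end was annotated for 14 of 64 genes, namely 7 of 17 H2B genes, 2 of 14 H2A, 2 of 13 H3, 3 of 14 H4 and 0 of 6 H1, and 13 of the 14 had a polyadenylation signal near its end. H2BC21 is annotated only in such a form, which ends 1729 bases after the stem-loop, while the longer form of H2BC5 ends 12742 bases away along the genome and that of H2AC6 14426 bases away. Of the 14 genes, 10 reached a mean of 10, against 9 of the 50 with the short form only. These numbers are not corrected for exon length, which was greater with a longer form, as in H2BC15 (4265 bases) against H2BC12 (495). Per kb in DMSO, the highest means (H2BC12, H1-2, H2AC11 and H4C9) belonged to genes with the short form only. The highest mean with a longer form was that of H2BC5, at 74.8. Of the 50 genes, 13 had no read and 28 more stayed below a mean of 10. The summed level of the 14 genes went from 389 ± 23.5 to 716 ± 24.5 normalized counts and that of the 50 genes from 582 ± 33.0 to 756 ± 26.6 (SD, n = 3 each), ratios of 1.84 and 1.30. The median log2 ratio was 0.76 over the 10 genes and 0.25 over the 9. Within class H2B the medians were 0.88 over 7 genes with a longer form and 0.85 over 3 genes without, the latter being H2BC17, H2BC12 and H2BC8 at 0.02, 0.85 and 1.19. Within class H2A, H2AC6 with a longer form was at 0.81, and H2AC11 and H2AC20 with the short form only were at 0.24 and -0.42. Within class H4, H4C8 with a longer form was at 0.02, and H4C9 and H4C5 with the short form only were at 0.80 and 0.02. Counts per gene do not separate the short form from the longer one, and which form the reads came from was not tested. Overlapping annotation also limits single values, as 21 of the 64 genes, 9 of the 19 among them, lie within long non-coding genes (ENSG00000291336 or ENSG00000291338) that span the cluster on chromosome 6. The median log2 ratio was 0.39 over these 9 genes and 0.68 over the 10 outside.

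H2A and H2B genes often stand head to head with a shared promoter between them, and 11 such pairs, 193 to 250 bases apart, were found in the annotation. Both genes reached a mean of 10 in 3 of these pairs, and in 4 pairs the H2A gene had no read in any library. In 2 pairs the H2A gene was lower and the H2B gene higher with no overlap on either side, H2AC20 with H2BC21 and H2AC8 with H2BC8. Over all genes tested, 10.9% were higher and 15.1% lower with no overlap, and 5.93% and 6.27% with no minimum level. H2AC20 had no unadjusted limma p under 0.05, and H2AC8, with 4 to 18 reads per library, was not tested. The intervals between the starts of these 2 pairs are given on the plus strand, with the H2B gene leaving to the left and the H2A gene to the right. Capitals mark exact matches on either strand. They were sought for the octamer ATTTGCAT, which OCT factors such as POU2F1 bind. The next was CCAAT, the motif of the factor NF-Y. The last was TATAAA, near which transcription by RNA polymerase II is often set. A match describes the letters only.
H2BC21 and H2AC20, chr1:149886683-149886917: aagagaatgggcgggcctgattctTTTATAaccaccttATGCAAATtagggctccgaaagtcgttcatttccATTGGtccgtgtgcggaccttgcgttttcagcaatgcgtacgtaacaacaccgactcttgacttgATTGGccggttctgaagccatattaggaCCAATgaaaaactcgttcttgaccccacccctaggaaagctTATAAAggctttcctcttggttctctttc
H2BC8 and H2AC8, chr6:26216689-26216920: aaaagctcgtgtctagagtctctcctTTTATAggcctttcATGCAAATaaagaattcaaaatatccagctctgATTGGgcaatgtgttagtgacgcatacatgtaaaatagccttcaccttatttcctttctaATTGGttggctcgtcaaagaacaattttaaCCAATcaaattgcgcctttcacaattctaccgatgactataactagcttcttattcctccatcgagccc

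Both intervals held 1 octamer, near the H2B start, and 3 CCAAT matches, and they held 2 and 1 TATAAA matches. The H2AC20 and H2BC21 values given above were 35.8 to 26.5 and 53.6 to 97.5 normalized counts in the means, and those of H2AC8 and H2BC8 were 12.9 to 5.22 and 10.9 to 25.3. Across the other pairs the H2B gene was not always the one that was higher. H2AC6 had a log2 ratio of 0.81 where H2BC4 had 0.19, and H2AC11 had 0.24 where H2BC11 had 0.71.

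**Figure D4:**
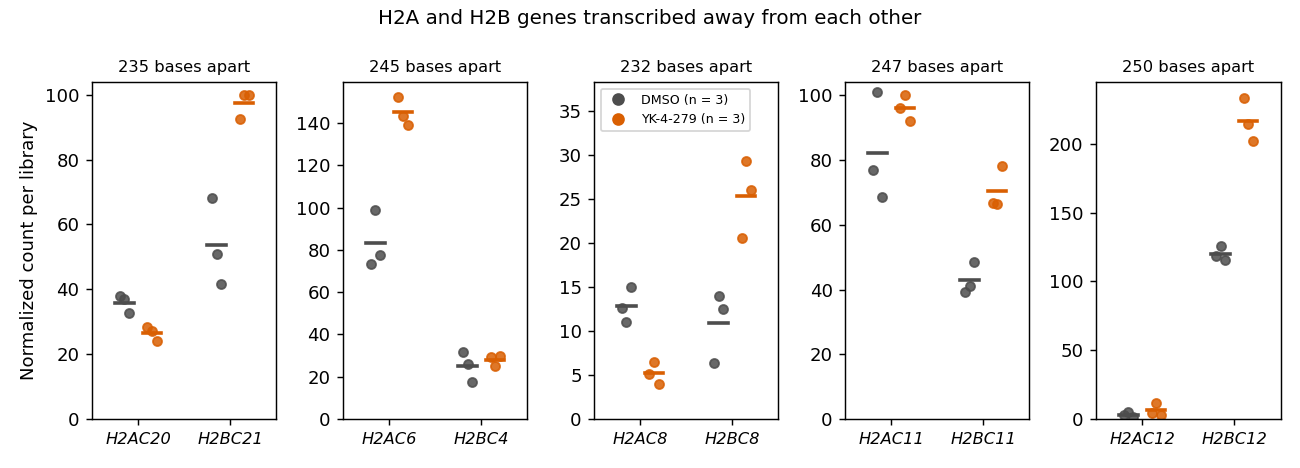
Normalized count per library of H2A and H2B genes that leave from a shared interval, 1 panel per pair with its own axis, with 3 grey DMSO and 3 orange YK-4-279 points and a line at each mean. In the panels of H2AC20 with H2BC21 and of H2AC8 with H2BC8 the orange points are below grey for H2A and above grey for H2B.

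Promoter letters were counted in the 250 bases before each gene's start (RefSeq, GRCh38.p14), with 59 of the 64 genes matched. The octamer ATTTGCAT or its complement was present in 14 of 17 H2B promoters (82.4%) and 11 of 13 H2A promoters (84.6%) and in no H1, H3 or H4 promoter, against 1.66% of all 27305 promoters. Head-to-head H2A and H2B genes share most of these letters, so their matches are not separate. CCAAT was present in every H1, H2A, H2B and H3 promoter matched but in 25% of H4 promoters, against 33% of all promoters, and TATAAA in 66.1% of the histone promoters against 11.1% of all. The promoters of H2BC5, with the largest ratio of the 4 called genes, and of H2BC12, with the highest level, are shown 5′ to 3′ on the gene's strand with the same motifs in capitals, adjoining matches running together.
H2BC5, chr6:26157872-26158121, plus strand: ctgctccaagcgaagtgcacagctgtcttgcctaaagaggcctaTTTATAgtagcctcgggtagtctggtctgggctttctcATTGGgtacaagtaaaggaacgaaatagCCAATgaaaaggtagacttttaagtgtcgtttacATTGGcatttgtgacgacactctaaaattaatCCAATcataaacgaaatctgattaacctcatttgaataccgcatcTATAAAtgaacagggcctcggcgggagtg
H2BC12, chr6:27146856-27147105, minus strand: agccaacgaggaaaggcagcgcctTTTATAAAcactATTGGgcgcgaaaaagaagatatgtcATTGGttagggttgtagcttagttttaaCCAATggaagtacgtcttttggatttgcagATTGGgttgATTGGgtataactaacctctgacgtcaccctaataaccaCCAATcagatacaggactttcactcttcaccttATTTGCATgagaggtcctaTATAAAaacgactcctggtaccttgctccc

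H2BC12 held the octamer close to its start, and no exact octamer was in the H2BC5 window, nor in that of H2BC15.

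Genes that make, process and remove histone mRNA were read in the same fit across all genes, with limma adjusted p-values over all 13930 genes. These lists were drawn up by function but with earlier results of the data known, so their directions are no independent evidence. They cover the genes of histone mRNA transcription and 3′ processing, of histone mRNA decay and of general polyadenylation. Of 22 genes of transcription and 3′ processing, 3 fell and 0 rose (limma adjusted p under 0.05) beside 2.15% and 1.26% of all genes, and the median log2 ratio was -0.11. The 3 were the kinase CDK2 and its cyclins CCNE1 and CCNE2, which switch on histone transcription at the start of S phase. CCNE2 had 367 ± 27.8 normalized counts with DMSO and 254 ± 3.71 with YK-4-279 (SD, n = 3 each), giving a log2 ratio of -0.53 (SE 0.10, limma adjusted p = 0.0106). CDK2 and CCNE1 had log2 ratios of -0.38 and -0.33 (limma adjusted p = 0.0117 and 0.0196). None of the 3 passed the threshold when any 1 YK-4-279 library was left out, or without the eBayes trend. With quantile normalization, with the replicate block and without DMSO replicate 3, 2 genes of this list were called lower. SLBP had a log2 ratio of -0.19 (95% interval -0.32 to -0.06, limma adjusted p = 0.109) and NPAT, the histone locus coactivator, of -0.29 (95% interval -0.49 to -0.09, limma adjusted p = 0.112). Neither passed, and both were named after their values were seen. SRRT, with the highest mean of the list, had 0.02 (limma adjusted p = 0.939).

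Of 15 genes of histone mRNA decay none passed limma's threshold, with 0 higher and 4 lower at an unadjusted p under 0.05 and 0 by edgeR and by DESeq2, and XRN1, the exonuclease that was most abundant there, had a log2 ratio of -0.001 (limma adjusted p = 0.998). Over all 13930 genes, 2600 had an unadjusted limma p under 0.05 in either direction. Of 17 genes of cleavage and polyadenylation of other mRNAs none passed, with 0 higher and 1 lower at an unadjusted p under 0.05, 0 by edgeR and 1 lower by DESeq2. PABPC1, the poly(A)-binding protein gene with the highest mean there, had -0.12 (limma adjusted p = 0.347). Without DMSO replicate 1, transcription and 3′ processing had 5 genes called lower, decay 0 and polyadenylation 2, and without DMSO replicate 2 these numbers were 4, 1 and 1. With GC and length trends removed they were 6, 3 and 1. All genes called lower in these 3 fits were 1179, 412 and 1088.

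Reads were also counted on a list of 28 RNAs without a poly(A) tail, small nuclear, nucleolar and Cajal body RNAs among them. Because these RNAs are of another kind than histone mRNAs, their levels do not measure how much histone mRNA without a tail passed. Of the 27 measured, 13 had no read and 3 reached a mean of 10, and their summed level was 267, 494 and 540.2 normalized counts in the DMSO libraries and 486, 393 and 443 in the YK-4-279 libraries. DMSO replicate 1 was the lowest of all, and the other DMSO libraries were above every YK-4-279 library. The part of such RNAs in the histone levels was not tested. None of the 3 passed limma's threshold, with 0 at an unadjusted p under 0.05 and 0 by edgeR and by DESeq2. RN7SL1, the highest, had 110, 328 and 330 with DMSO and 313, 263 and 259 with YK-4-279 (log2 ratio 0.28, limma adjusted p = 0.662). The low value was in DMSO replicate 1.

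Histone genes usually counted as replication-independent are mostly expressed outside S phase as well, largely as polyadenylated mRNA. They are set beside the genes above, and which forms of H2AX mRNA the reads came from was not tested. Of 11 such genes reported here 9 were tested, and 1 of them, H2AX, fell and 0 rose, beside 2.15% and 1.26% of all genes. H2AX, the variant phosphorylated at DNA breaks, had 7100, 7382 and 7149 with DMSO and 5574, 5408 and 5338 with YK-4-279, and it fell by 0.41 on the log2 scale (limma adjusted p = 0.00225). H2AX kept its call without any 1 library, but it had a limma adjusted p of 0.0755 without the eBayes trend. Without DMSO replicate 1 there were 5 genes of this list called lower, beside 1179 of all 13930 genes. H3-3B, the most abundant of the list, had a log2 ratio of 0.01 (95% interval -0.10 to 0.12, limma adjusted p = 0.924). H4-16, the 1 tested histone gene under other symbols, encodes H4 and had 15.1, 15.99 and 17.5 with DMSO and 32.6, 14.1 and 42.0 with YK-4-279, overlapping groups with a log2 ratio of 0.70 (limma adjusted p = 0.316). Its list had no gene called by limma, none at an unadjusted p under 0.05 and none by edgeR or DESeq2.

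S phase genes and some histone chaperones fell with YK-4-279. Of 15 S phase genes 10 fell and 0 rose, beside 2.15% and 1.26% of all genes, all 15 had a log2 ratio below 0, and the median was -0.27 against -0.007 for all genes. RRM2, the ribonucleotide reductase subunit, and TYMS, thymidylate synthase, fell by 0.52 and 0.57 on the log2 scale (limma adjusted p = 0.000374 and 0.015). POLA1 of DNA polymerase alpha and PCNA, the sliding clamp, fell by 0.38 and 0.37 (limma adjusted p = 0.0111 and 0.00741). The number called was 15 without DMSO replicate 1 (beside 1179 of all 13930 genes called lower), 6 without DMSO replicate 3 and 1 without any 1 YK-4-279 library. Of 18 chaperone genes tested 5 fell and 0 rose, beside the same 2.15% and 1.26%, among them HJURP, CHAF1B, RBBP4 and ASF1B, at -0.37, -0.35, -0.32 and -0.31 (limma adjusted p = 0.00786, 0.0236, 0.0129 and 0.0122). That number was 10 without DMSO replicate 1, 2 without DMSO replicate 3 and 0 without any 1 YK-4-279 library. NAP1L1, the H2A and H2B chaperone with the highest mean, had a log2 ratio of -0.20 (limma adjusted p = 0.172).

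**Figure D5:**
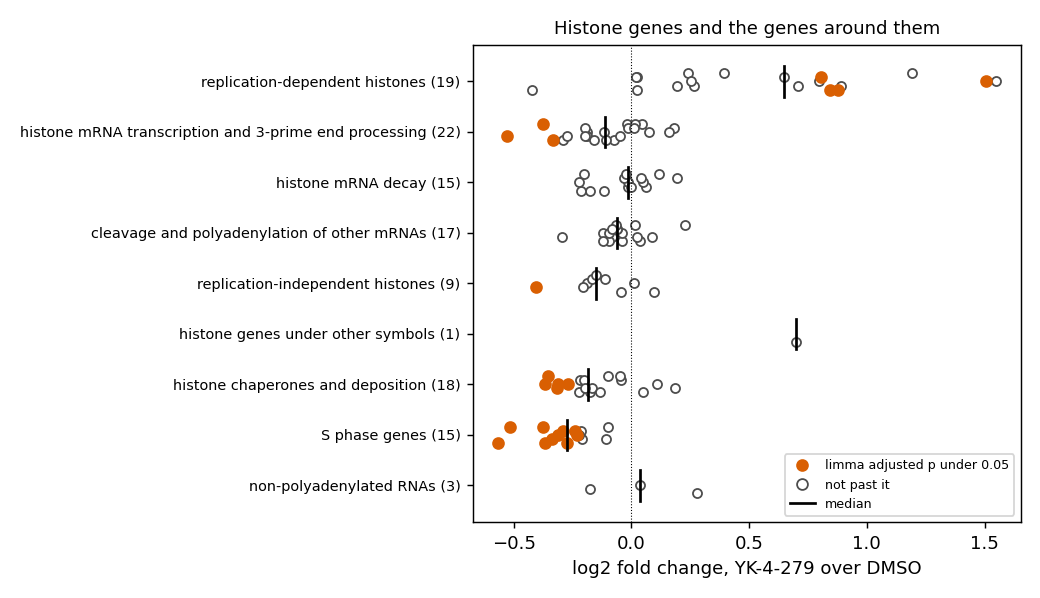
Log2 ratio (YK-4-279 over DMSO, limma) of each tested gene of the histone genes and of the lists around them, with filled points for a limma adjusted p under 0.05 and a bar at the median; numbers of genes are in parentheses. The replication-dependent histone genes have a median of 0.65, the S phase genes of -0.27, and the medians of the other lists of more than 1 gene lie between -0.185 and 0.038.

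Markers of the muscle lineage were present at unequal levels, which does not identify the line itself. MYOD1 and MYOG, the myogenic factors, had means of 37120 and 13810 normalized counts with DMSO, whereas MYMK and MYH3 had 32.2 and 41.6, and the 6 myogenic genes summed to 53630 to 63460 with DMSO and 60090 to 63320 with YK-4-279. The summed blood markers (PTPRC, CD3E) were 0 to 1.00, those of epithelium 50.1 to 89.97, of endothelium 25.0 to 42.8 and of fibroblasts 676 to 805. None of these markers passed the threshold with limma, edgeR or DESeq2. At an unadjusted p under 0.05 from limma 4 myogenic genes and 1 fibroblast gene were higher, beside 2600 of 13930 genes in either direction.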

How the data were processed

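mRNA-seq of Rh30 cells was analysed from 3 DMSO and 3 YK-4-279 libraries, grouped by their labels. The authors trimmed reads with BBDuk and aligned them to hg38 with STAR. The submitters' processing notes name STAR 2.7.9a and DESeq2 1.44.0. The annotation release and the strand setting of counting are not given in the sources used here. The authors deposited normalized counts, a signal per gene in which reads were scaled by 1 factor per library. Dividing each library by its smallest step gave whole reads (within 0.01) for 100% of the values. Of 35269 rows, 1 without a name, with at most 6 reads, was left out, and the number of unused sample columns was 0.

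limma 3.58.1 in R 4.3.3 (lmFit, eBayes with trend) was run on log2(normalized count + 1) for 13930 genes with a mean of at least 10, two-sided, with Benjamini-Hochberg adjustment over all of them. It called 475 genes at 0.05, 176 higher and 299 lower. edgeR 4.0.16 (quasi-likelihood) and DESeq2 1.42.0 on the recovered reads called 465 and 635, with 2161 adjusted values not assigned by DESeq2. The p-values measure the spread between these triplicates, which may be technical.

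The histone genes and the lists were chosen with earlier results of these data known. Named were every histone gene with a mean of at least 10, the 3 just under it, and in each list the gene with the highest mean and up to 4 with an adjusted p under 0.05. Stem-loops, longer forms and head-to-head pairs came from GENCODE release 44 on hg38, promoters from the RefSeq window nearest the short form, and exact copies of at least 100 bases from a BLAST search of its transcripts. Alternatives were pseudocounts of 0.5 and 10, no minimum level and a mean of at least 100, TMM scaling, quantile normalization, a replicate block, eBayes with no trend, removal of GC and length trends (mgcv 1.9.3, 98.4% of genes), edgeR, DESeq2 and leaving out each library. Of the list of replication-independent histones, 1 gene is not reported here. The code was tested on simulated reads.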

Additional observations from a re-analysis of the deposited data

How the results depend on the processing

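Most of the 19 histone genes kept their direction, but the number of calls depended on single libraries and on how the spread was estimated. In every alternative fit 15 of the 19 had the same sign, the exceptions being H2BC4, H4C8, H4C5 and H2BC17. The median of 0.65 was 0.534 with a pseudocount of 10, 0.253 with no minimum level, 0.825 for genes of mean 100 or more, 0.504 under quantile scaling and 0.535 with GC and length trends removed, and leaving out single libraries gave 0.513 (without DMSO replicate 2) to 0.739. The 475 calls over all genes became 277 with quantile scaling, 33 without the eBayes trend, 1665 with GC and length trends removed and 19 to 1823 without 1 library. The share called higher, 37.1%, was 47.7% with quantile scaling, 90.9% without the trend and 60.9% to 78.9% without 1 YK-4-279 library. The 4 histone calls became 2 without the trend, 7 with GC and length trends removed and 1 to 8 without 1 library, and the 20 list calls became 2, 42 and 3 to 39. Same-numbered samples did not deviate together (correlations -0.098, -0.027 and -0.027), and with the replicate block 180 genes, 4 histone genes and 11 list genes were called. The H2A sum had a ratio of 0.987 without H2AC6 and 1.20 to 1.38 without 1 library, the H4 sum 0.943 without H4C9, and 1 gene was lower with no overlap among those with a mean of at least 10 against 2 of all. No scaling moved the median of all genes by over 0.1. The cause of these shifts was not tested. With 3 libraries a group and at most 233 normalized counts for any histone gene in a library, values near the minimum level are limited by counting error.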
